A study of Mus musculus with 9 samples.

Results

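The H3K27me3 domains that all 8 libraries shared were compared between Dnmt3a-mutant (RH) and wild-type (WT) blood progenitors. These domains were the autosomal regions of the authors' merged list that an interval of every library overlapped by at least 1 bp. There were 6336 of them, out of 18556 merged regions and 15836 autosomal ones. H3K27me3 had been mapped by chromatin immunoprecipitation and sequencing in lineage-negative, c-Kit-positive bone marrow cells that were enriched with magnetic beads and never cultured. The marrow was taken from transplanted female mice given metformin (MET) or vehicle (VEH) for 1 month. RH cells were of the genotype Dnmt3afl-R878H/+ and WT cells were Dnmt3a+/+, both of C57BL/6 background and both crossed to an Mx1-cre line, so that the controls carried the recombinase too. The 4 groups were RH VEH, RH MET, WT VEH and WT MET with 2 libraries each, which made 4 RH libraries against 4 WT libraries with the treatments pooled. Values of the 4 libraries of a genotype are given in the order VEH 1, VEH 2, MET 1 and MET 2 throughout. Ages, the share of donor cells and whether the libraries came from separate animals are not stated in the labels, so a p-value here speaks of the spread among libraries, and that spread may be technical. The Mx1 promoter responds to interferon and is not restricted to blood cells.

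H3K27me3 is placed by Polycomb repressive complex 2, whose catalytic subunit is Ezh2 or Ezh1, and spreads from CpG-rich start sites of silent developmental genes into broad domains. Cbx proteins of Polycomb repressive complex 1 bind the mark. Dnmt3a adds methyl groups to unmethylated CpG sites, and the R878H substitution is the mouse counterpart of a common mutation of human clonal hematopoiesis and acute myeloid leukemia. DNA methylation and H3K27me3 tend to exclude each other at CpG-dense DNA. The mark's intervals do not read the R878H substitution itself, so they give no check of the genotype.

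The promoters below are those of the first genes with a RefSeq promoter among the named regions of each class described further on. They are shown as single examples whose CpG density differs widely, and the classes themselves had similar median densities, given further on. Each run has 250 bases before and 50 bases after the start site, on the build GRCm38.p6 (the assembly of mm10), 5′ to 3′ on the gene's strand, with every CG dinucleotide, the site of DNA methylation, in capitals.
Eva1b, chr4:126147753-126148052, plus strand: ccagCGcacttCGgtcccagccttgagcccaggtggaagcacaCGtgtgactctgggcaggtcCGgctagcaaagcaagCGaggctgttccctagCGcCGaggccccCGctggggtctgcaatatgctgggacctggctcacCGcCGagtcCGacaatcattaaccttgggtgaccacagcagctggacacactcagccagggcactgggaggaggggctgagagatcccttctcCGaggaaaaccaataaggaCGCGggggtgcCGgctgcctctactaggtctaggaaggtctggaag
Mpped1, chr15:83779773-83780072, plus strand: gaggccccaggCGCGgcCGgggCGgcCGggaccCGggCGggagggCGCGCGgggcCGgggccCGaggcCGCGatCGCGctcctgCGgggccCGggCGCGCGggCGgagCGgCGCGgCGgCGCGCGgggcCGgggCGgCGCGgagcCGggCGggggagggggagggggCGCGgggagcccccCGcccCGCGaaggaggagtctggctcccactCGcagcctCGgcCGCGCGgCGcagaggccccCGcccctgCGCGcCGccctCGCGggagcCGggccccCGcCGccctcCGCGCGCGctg
Trim47, chr11:116110186-116110485, minus strand: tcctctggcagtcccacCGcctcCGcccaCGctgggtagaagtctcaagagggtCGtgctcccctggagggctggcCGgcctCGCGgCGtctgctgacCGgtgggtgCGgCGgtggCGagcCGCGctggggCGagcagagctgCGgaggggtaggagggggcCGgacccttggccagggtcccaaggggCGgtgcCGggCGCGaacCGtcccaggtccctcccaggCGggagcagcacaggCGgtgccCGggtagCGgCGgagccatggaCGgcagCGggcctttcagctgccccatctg
Krt5, chr15:101712856-101713155, minus strand: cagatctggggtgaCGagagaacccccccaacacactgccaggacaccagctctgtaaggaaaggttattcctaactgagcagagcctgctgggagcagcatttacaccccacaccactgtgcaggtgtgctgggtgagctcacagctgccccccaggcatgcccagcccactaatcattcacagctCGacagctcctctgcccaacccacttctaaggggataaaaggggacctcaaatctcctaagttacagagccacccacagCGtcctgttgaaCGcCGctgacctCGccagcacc
They held 15 CG dinucleotides at Eva1b, 59 at Mpped1, 29 at Trim47 and 6 at Krt5. Over 16457 autosomal promoters of the same length the median was 14 and 95% held at least 1 CG, a motif that reads the same on both strands, and over the 3959 promoters inside the shared domains the median was 18 and 99.3% held it. An interval lay over the Eva1b, Mpped1 and Trim47 promoters in all 8 libraries, and over the Krt5 promoter in 3.

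The mean marked length was shorter in RH, and the groups overlapped. Autosomal intervals covered 76.8, 136, 113 and 123 Mb in the RH libraries, against 132, 130, 135 and 166 Mb in the WT libraries. The means were 112 ± 25.5 Mb in RH and 141 ± 17.2 Mb in WT (SD, n = 4 each; two-sided exact permutation p = 0.114). RH VEH 1 had the least cover of the 8 and WT MET 2 the most, and the difference, RH minus WT, was -28.4 Mb with all libraries and -16.6 Mb without RH VEH 1. In bulk chromatin, fewer marked cells and less mark per cell cannot be told apart, nor can a shift in the mix of stem cells and progenitors from one within them. Numbers of autosomal intervals ranged over 10956 to 15098 in RH and 11000 to 14670 in WT. The number of reads behind each list is not given, so interval number and cover stand in for depth only loosely. The labels name no batch, and the sorted population was checked by calls of a silencing mark alone: Ptprc and Runx1 had no interval in any library and Kit had at most 8.58% of its span covered, whereas Gata2 was covered over at least 89.1% in all 8. The non-blood genes Pecam1, Cdh5 and Alb and the lineage genes Ly6g and Itgam also had no interval, whereas the T-cell gene Cd3e and the collagen gene Col1a1 were covered over at least 59.7 and 56.9% in all 8, so a lack of the mark did not mark out the progenitors.

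The shared domains took up most of the marked genome in both genotypes. They held 93.7, 83.9, 82.9 and 82.7% of the cover in RH libraries, against 86.0, 82.2, 80.2 and 75.5% in WT libraries, or 85.8 ± 5.29% in RH and 81.0 ± 4.36% in WT (SD, n = 4 each; exact permutation p = 0.229). The median shared domain was covered over 6.80, 11.2, 8.80 and 9.60 kb in RH libraries and over 11.2, 10, 10.4 and 12.2 kb in WT libraries (exact permutation p = 0.143). Domains were in a similar number of pieces, with 1.51 ± 0.118 intervals per domain in RH and 1.45 ± 0.0938 in WT (SD, n = 4 each; exact permutation p = 0.457). At 1625 domains that held 1 listed promoter and 1 interval in every library, cover reached 2.81 ± 0.496 kb upstream of the start site in RH and 3.30 ± 0.270 kb in WT (SD, n = 4 each, exact permutation p = 0.143). Downstream it reached 3.59 ± 0.490 kb in RH and 4.05 ± 0.253 kb in WT (SD, n = 4 each, exact permutation p = 0.171). The summit lay a median of 489 ± 29.0 bp from the start site in RH libraries and 462 ± 12 bp in WT libraries (exact permutation p = 0.114). For each pair of libraries, the median distance over domains between the 2 summits of a domain was taken. These medians averaged 269 bp over the 6 RH pairs, 245 bp over the 16 pairs of an RH with a WT library and 213 bp over the 6 WT pairs. The groups overlapped in each of 20 such totals, and none passed adjustment (smallest Benjamini-Hochberg adjusted exact p = 0.408). With 4 libraries against 4 the smallest exact permutation p is 0.0286. A single separated total could not have passed over 20, so the adjustment cannot decide whether the totals differ.

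**Figure D1:**
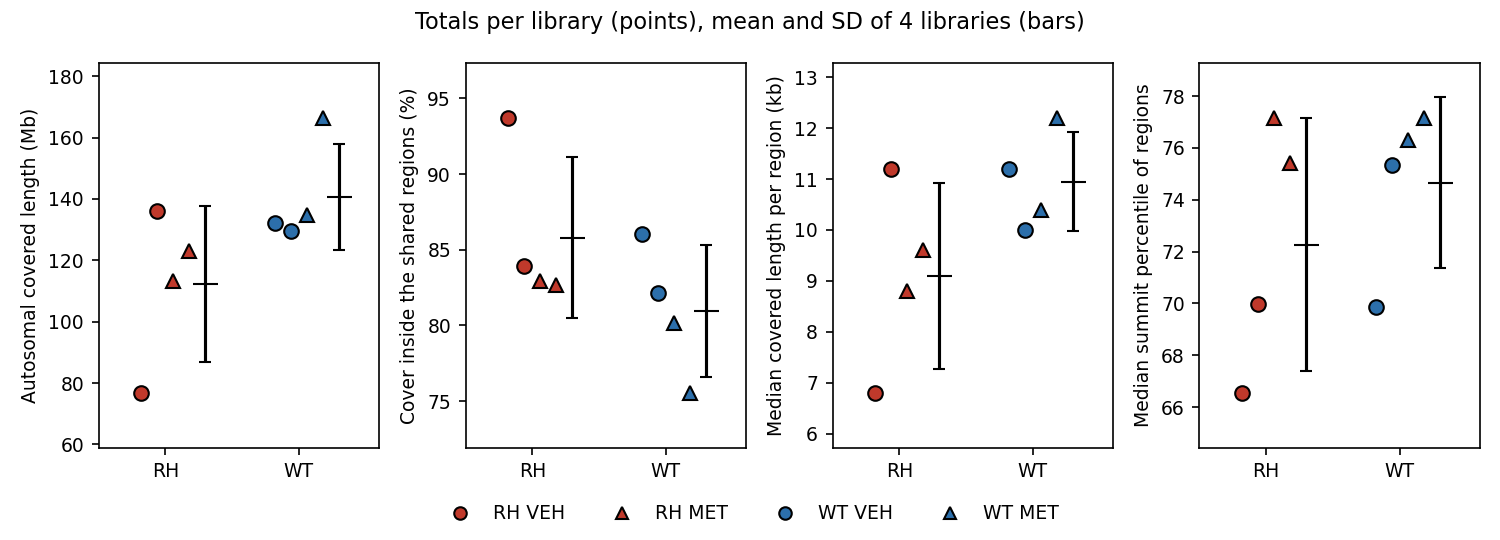
Points are the 8 libraries, RH left of WT, with bars for the mean and SD of 4 libraries; the y axes give autosomal covered length in Mb, the percent of it inside the 6336 shared domains, the median covered length per domain in kb and the median summit percentile. Every panel overlaps between genotypes, with RH VEH 1 lowest in cover at 76.8 Mb and highest in the share held by the domains at 93.7%.

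Width was then expressed as the share, in ppm, that a domain's covered length made up of that library's autosomal cover, and strength as the percentile of the domain's highest summit among all autosomal summits of the same library. Over the 6336 domains the median log2 difference in width share, RH minus WT, was 0.11, and 65.8% of domains had a positive one. The differences ran from -1.69 to 1.4, with a median within-genotype SD of 0.32. The median difference in summit percentile was -1.75 points, 29.9% of domains had a positive one, and the range was -29.4 to 23.2 points with a median within-genotype SD of 5.73 points. Both medians moved with single libraries. That of width share was 0.07 without RH VEH 1 and likewise 0.07 without WT MET 2, and up to 0.16 without WT VEH 1. That of summit percentile was -0.36 points without RH VEH 1, -2.92 without RH MET 1 and -3.26 without WT VEH 1. Over the 8 ways of leaving out 1 library, 17.98 to 44.57% of domains were positive. These are differences of plain means, in which leaving out a library unbalances the treatments. In limma's fit with a treatment term the percentile medians were -0.97 without RH VEH 1, -2.19 without RH MET 1, -2.57 without WT VEH 1 and -0.58 without WT VEH 2. Those of width share were 0.08 without RH VEH 1, 0.09 without WT MET 2 and 0.14 without WT VEH 1.

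All 4 RH libraries lay above all 4 WT libraries in width share at 251 domains (3.96%) and below them at 63 (0.994%). In summit percentile they lay above at 25 domains (0.395%) and below at 149 (2.35%). A domain whose groups do not overlap has the smallest p that the exact permutation test of 4 against 4 can give, 0.0286, so that no domain passed Benjamini-Hochberg adjustment over all 6336 (smallest adjusted exact p = 0.577 for width and 0.949 for percentile). Limma with treatment and genotype called 0 domains on either measure at an adjusted p of 0.05 (smallest adjusted p = 0.107 for width and 0.209 for percentile). At an unadjusted limma p of 0.05 it gave 321 domains (5.07%) with a higher width share in RH and 180 (2.84%) with a lower one, and 67 (1.06%) with a higher percentile in RH and 406 (6.41%) with a lower one.

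The split between directions depended on what a library was measured against. With the cover inside the shared domains as the denominator, RH lay above WT at 171 domains (2.70%) and below at 114 (1.80%), and the median log2 difference was 0.03. With covered length as such, RH lay above at 7 domains (0.11%) and below at 331 (5.22%), and the median was -0.24. With the percentile taken among the domains' own highest summits, RH lay above at 145 (2.29%) and below at 124 (1.96%), and the median difference was -0.0996 points. Without RH VEH 1 the counts were 318 above and 123 below for width share, and 122 above and 184 below for percentile, though 3 libraries separate from 4 more easily than 4 do. Of the 251 domains with the wider share in RH, 7 were among the 149 with the lower percentile in RH (2.79% of the 251 and 4.70% of the 149), and 0 were among the 25 with the higher percentile. For a difference between treatments in the genotype difference, limma's interaction term called 0 domains on either measure at an adjusted p of 0.05. At an unadjusted limma p of 0.05 it gave 220 of 6336 domains for width and 242 of 6336 for percentile. For scale, 321 domains make up 5.07% of the 6336.

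**Figure D2:**
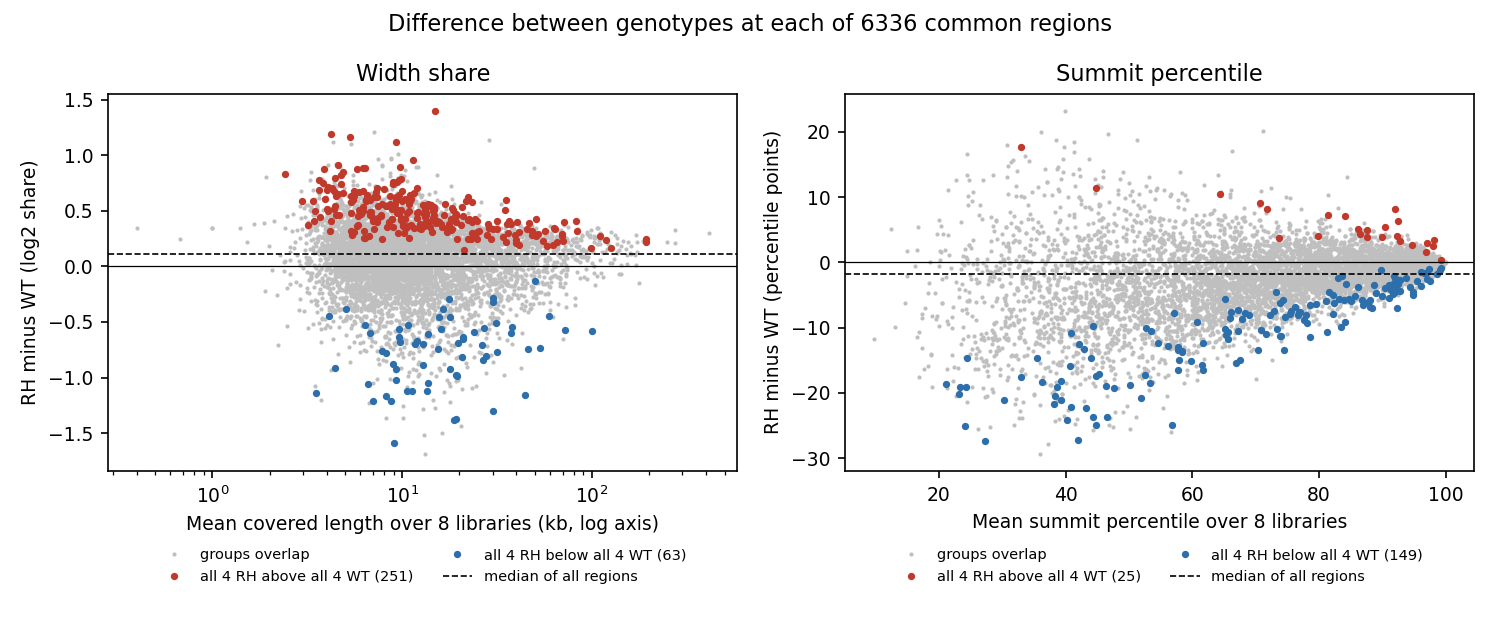
Each point is 1 of 6336 shared domains, with the difference RH minus WT on the y axis (left, log2 width share against mean covered length in kb on a log axis; right, percentile points against mean percentile). Red points (251 left, 25 right) have all 4 RH libraries above all 4 WT libraries, blue points (63 left, 149 right) have them below, and the dashed median lies at 0.11 on the left and -1.75 on the right.

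The median width difference was larger among stronger domains. Sorted into 4 equal classes by mean percentile, from weakest to strongest, the median log2 differences in width share were -0.02, 0.11, 0.15 and 0.17. Without RH VEH 1 they were -0.01, 0.05, 0.09 and 0.10, and as covered length they were all negative, at -0.37, -0.24, -0.20 and -0.18. The strongest class held 45.7, 36.4, 38.1 and 37.4% of the cover in RH libraries, against 37.9, 36.5, 35.7 and 32.1% in WT libraries, with RH VEH 1 the highest and WT MET 2 the lowest of the 8. That is 39.4 ± 4.26% in RH and 35.5 ± 2.47% in WT (SD, n = 4 each; exact permutation p = 0.143, adjusted p = 0.294 over 8 class values). The 251 domains above in RH had a median mean percentile of 83.0 and median cover of 10.9 kb, and the 63 below had 52.7 and 16.1 kb, against 73.2 and 10.1 kb over all domains. A listed RefSeq promoter lay in 53.8% of the 251 and in 42.9% of the 63, against 52.1% of all domains. At most 1 listed promoter per gene was used, and the domains over Foxf1, Sox9 and Tbx15 counted as holding none. These shares may therefore be too low. Where a domain held a listed promoter, the highest CG count among its listed promoters had a median of 20 in the 251. That median was 21 in the 63 and 20 over all domains. Over single promoters the median CG count was 17 in the 251 and 19 in the 63, against 18 in all shared domains. It was 19.5 in the 25 domains above in percentile and 20 in the 149 below.

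The domain with the largest width difference among the 251 lay inside Grik4, which encodes a kainate-type glutamate receptor subunit (chr9:42876201-42904200, mm10). It took 154, 148, 166 and 216 ppm of the cover in RH libraries, against 56.0, 47.9, 47.5 and 132 ppm in WT libraries, a log2 difference of 1.4 (limma SE 0.28, adjusted p = 0.332). All 4 RH libraries had 2 intervals there, and so did WT MET 2, whereas the other 3 WT libraries had only the interval on the higher-coordinate side. Summit percentiles overlapped, at 84.2 to 93.6 in RH and 87.4 to 93.1 in WT.

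Other domains of this class lay over genes of several kinds. Pknox2, a TALE-class homeobox gene, had 67.7, 54.4, 75.9 and 48.8 ppm at its domain (chr9:37046801-37059600) in RH, against 22.7, 27.8, 35.6 and 24.0 ppm in WT. The domain at Pebp4, of the phosphatidylethanolamine-binding protein family (chr14:69987401-70006200), had 104, 83.8, 109 and 124 ppm in RH and 49.9, 46.3, 41.5 and 55.3 ppm in WT. These 2 domains had log2 differences of 1.16 and 1.12 (limma adjusted p = 0.332 each), and both were named because their shares do not overlap. At Pebp4 the covered lengths overlapped, with 8.0 kb in RH VEH 1 and 9.2 kb in WT MET 2.

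Eva1b and its neighbour Sh3d21 shared a domain (chr4:126145201-126155200) that covered 6.40, 9.60, 6.40 and 8.0 kb in RH, against 6.00, 4.2, 5.40 and 5.2 kb in WT. Here the covered lengths themselves did not overlap, and the shares were 68.9 ± 11.3 ppm in RH and 37.3 ± 6.67 ppm in WT (SD, n = 4 each). The interval ran over the Eva1b promoter printed above in every library and ended 1.4 to 5.0 kb beyond the middle of the merged region in RH, against 1.00 to 1.80 kb in WT.

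A further 5 regions of this class had log2 differences of 0.77 to 0.95. They lay 9036 bp from Rab30, a small GTPase gene, with 126 ± 31.5 ppm in RH and 66.6 ± 21.8 ppm in WT, and 79458 bp from Synm, an intermediate filament gene, with 101 ± 22.8 ppm in RH and 54.2 ± 11.9 ppm in WT (SD, n = 4 each). Next to Tank, an adaptor of NF-kB signalling, the shares were 66.0 ± 28.7 ppm in RH and 34.3 ± 7.52 ppm in WT. Over Ttc39b they were 101 ± 15.0 ppm in RH and 59.2 ± 12.2 ppm in WT, and over Tm4sf5 and Vmo1 96.4 ± 14.1 ppm in RH and 59.4 ± 22.5 ppm in WT. At Tm4sf5 the difference was 1.44 log2 units under VEH and 0.11 under MET, and the difference between the treatments did not pass adjustment.

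**Figure D3:**
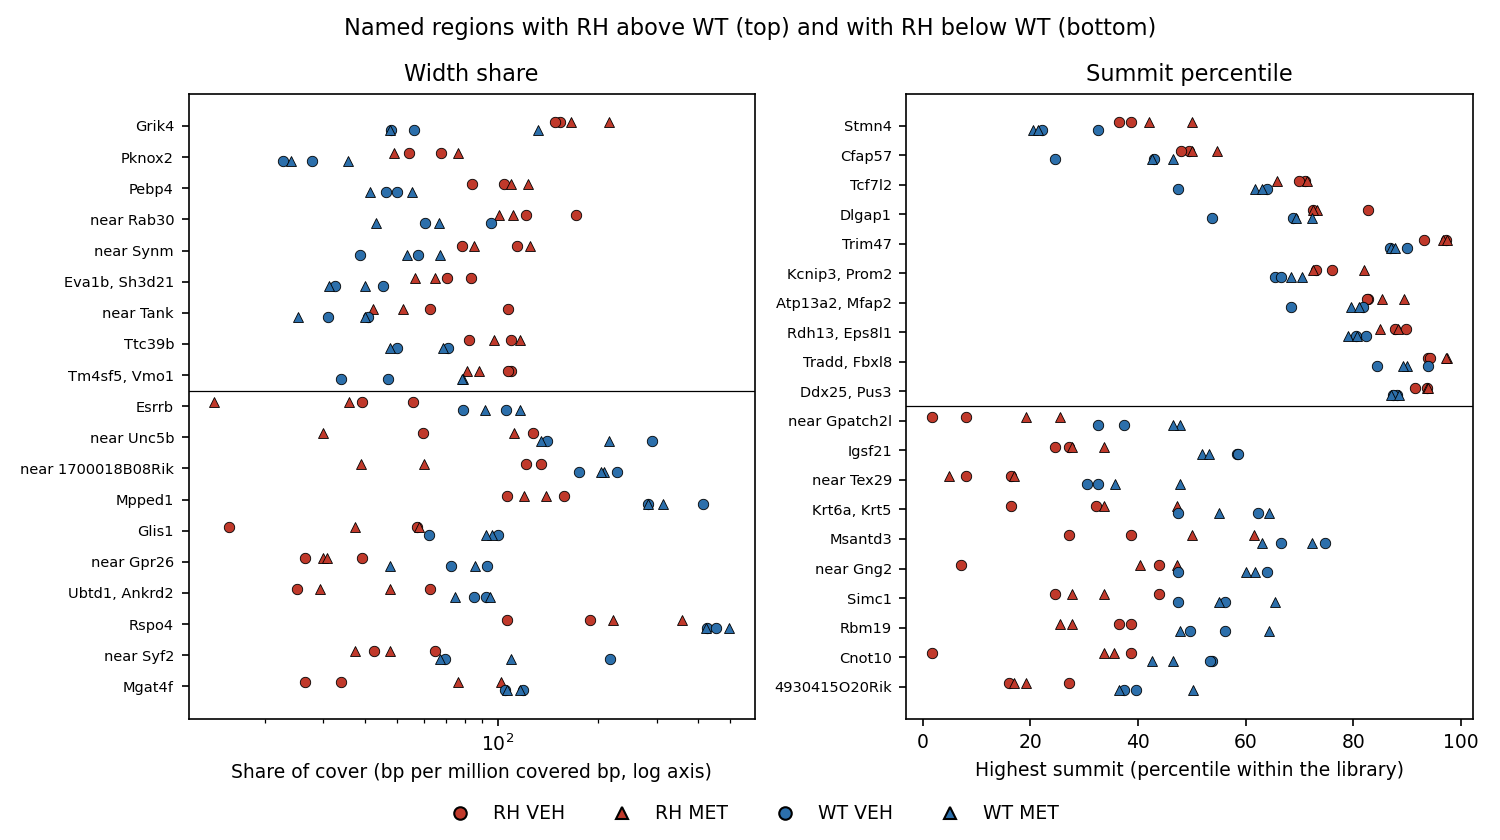
Rows are the domains named in each direction, RH above WT in the upper part and RH below WT in the lower part, with red RH and blue WT points for VEH (circles) and MET (triangles); the x axes are width share in ppm on a log axis (left) and summit percentile (right). The red and blue points of a row do not overlap, which is how the rows were chosen, and the gap is wide at Grik4 except for WT MET 2 at 132 ppm.

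Among domains below in RH, the one over Mpped1, a metallophosphoesterase-domain gene, had the smallest adjusted p of all 6336. Its merged region (chr15:83749401-83814000) was covered over 8.20, 21.6, 15.8 and 14.8 kb in RH libraries, against 54.8, 36.6, 42.2 and 47.2 kb in WT libraries. Shares were 131 ± 22.7 ppm in RH and 323 ± 62.4 ppm in WT (SD, n = 4 each), a log2 difference of -1.30 (limma SE 0.19, adjusted p = 0.107). The interval over the CpG-dense start site printed above was present in all 8 libraries. RH libraries had 1, 2, 1 and 2 intervals in the region, against 3, 4, 5 and 2 in WT libraries, and those outside the start site were the ones missing or shorter in RH. Summit percentiles overlapped, at 61.0 to 79.4 in RH and 65.5 to 77.7 in WT.

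Esrrb, which encodes an orphan nuclear receptor known from pluripotent stem cells, had the largest fold difference of this class. Its region (chr12:86462401-86488400) took 39.1, 55.9, 14.1 and 35.8 ppm in RH, against 106, 78.7, 91.9 and 117 ppm in WT, a log2 difference of -1.59 (limma SE 0.34, adjusted p = 0.332). The difference was -0.97 under VEH and -2.20 under MET. Its summits were weak, with percentiles of 2.60 to 36.5 in RH and 6.43 to 60.0 in WT.

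Rspo4, an R-spondin gene whose protein raises Wnt signalling, lay in a region (chr2:151783601-151880400) that covered 8.20, 25.8, 40.4 and 27.4 kb in RH, against 56.0, 58.6, 57.0 and 82.4 kb in WT. RH VEH 1 was the lowest of the 8. Glis1, a Krüppel-like zinc-finger gene, had 42.1 ± 20.1 ppm in RH and 87.8 ± 17.5 ppm in WT, and the region over Ubtd1, Ankrd2 and Hoga1 had 41.1 ± 17.3 ppm in RH and 86.7 ± 9.14 ppm in WT (SD, n = 4 each). The Ubtd1 region was covered over 3.40 to 5.40 kb in RH and 11 to 12.8 kb in WT. Mgat4f had 59.7 ± 35.9 ppm in RH and 112 ± 7.26 ppm in WT, with 102 ppm in RH MET 2 against a lowest WT value of 105 ppm.

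The other 4 regions of this class overlapped no protein-coding gene, and 21 of the 63 domains did so (33.3%, against 17.6% of all domains). They lay 22819 bp from the netrin receptor gene Unc5b, with 82.5 ± 45.5 ppm in RH and 196 ± 73.2 ppm in WT, and 82775 bp from 1700018B08Rik, with 89.1 ± 46.9 ppm in RH and 205 ± 21.7 ppm in WT. The region 155761 bp from Gpr26 had 31.6 ± 5.33 ppm in RH and 74.5 ± 19.8 ppm in WT, and the one 74663 bp from Syf2 had 48.2 ± 12 ppm in RH and 116 ± 70.6 ppm in WT, where WT VEH 1 alone reached 218 ppm (SD, n = 4 each). Limma's adjusted p was 0.332 to 0.578 over these 4 regions.

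**Figure D4:**
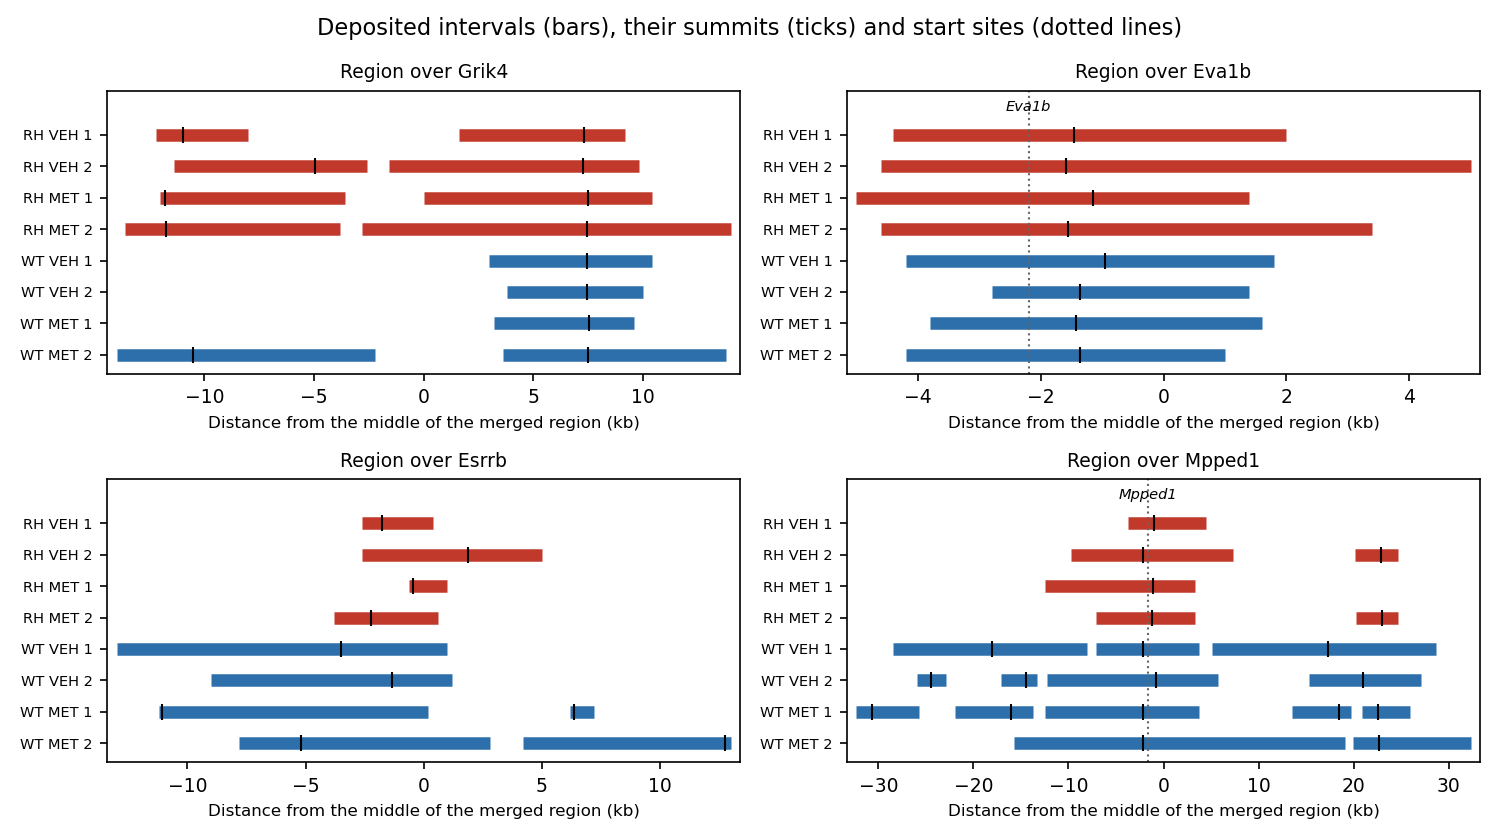
Bars are the deposited intervals of each library (RH above WT) in 4 named regions, ticks their summits and dotted lines the start sites of Eva1b and Mpped1; the x axis is distance in kb from the middle of the merged region. At Grik4 the left interval is present in 4 RH libraries and in WT MET 2, and at Mpped1 RH libraries have 1 or 2 intervals and WT libraries 2 to 5, with 1 over the start site in all 8.

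The 25 domains above in percentile were the fewest of the 4 classes, although by the percentile among the domains' own summits 145 were above and 124 below. Trim47, of the TRIM family of ubiquitin ligases, had the smallest adjusted p on this measure (chr11:116098401-116114200). Its highest summit ranked at percentiles 97.2, 93.1, 96.6 and 97.4 in RH libraries, against 89.9, 86.9, 87.0 and 87.7 in WT libraries, a difference of 8.21 points (limma SE 1.36, adjusted p = 0.209). The adjusted p was 0.0282 with array weights. Over the 8 fits that each left out 1 library it ran from 0.0439 without RH VEH 2 to 0.830 without RH MET 2, with no other of these under 0.05, and by mean summit height it was 0.649. The domain also covered 10.7 ± 2.79 kb in RH and 6.80 ± 1.25 kb in WT (SD, n = 4 each), and its shares overlapped through 57.3 ppm in RH VEH 2 and 63.6 ppm in WT VEH 1.

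The largest percentile differences in this direction were at weak summits. Stmn4, a stathmin-family gene of neurons, had percentiles of 36.5, 38.6, 42.0 and 50 in RH, against 22.2, 32.6, 20.4 and 21.5 in WT, a difference of 17.6 points. Its summit heights as such overlapped, at 10, 13, 14 and 16 in RH, against 11, 13, 12 and 13 in WT. At such low whole-number heights 1 unit moves the percentile by several points. In RH MET 1 a height of 12 ranked at 27.7 and a height of 13 at 35.5. Cfap57, a cilia gene, had percentiles of 50.5 ± 2.87 in RH and 39.1 ± 9.90 in WT. Tcf7l2, a transcription factor that acts in Wnt signalling, had 69.5 ± 2.54 in RH and 59.1 ± 7.76 in WT, and Dlgap1, a postsynaptic scaffold gene, had 75.2 ± 4.95 in RH and 66.1 ± 8.31 in WT (SD, n = 4 each). At both genes WT VEH 1 was the lowest library, at 47.5 for Tcf7l2 and 53.8 for Dlgap1.

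The other 5 named regions differed by 5.48 to 8.15 points at summits of higher rank. That over Kcnip3 and Prom2 had 75.9 ± 4.36 in RH and 67.7 ± 2.21 in WT, while its cover was 9.05 ± 2.62 kb in RH and 17.6 ± 3.63 kb in WT. Rdh13 and its neighbours had 87.7 ± 2.03 in RH and 80.6 ± 1.36 in WT, and the region of the death-receptor adaptor gene Tradd had 95.7 ± 1.85 in RH and 89.4 ± 3.87 in WT (SD, n = 4 each). The region at Atp13a2 and Mfap2 had 82.6 to 89.4 in RH and 68.5 to 81.8 in WT, and that at Ddx25 and Pus3 had 91.5 to 93.9 in RH and 87.0 to 88.5 in WT. Limma's adjusted p was 0.632 or 0.653 at these regions.

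Separated domains of lower rank in RH outnumbered those of higher rank by the percentile among all summits, but not by that among the domains' own summits. The region of the epidermal keratin genes Krt6a, Krt5 and Krt71 (chr15:101692601-101755400) had percentiles of 16.5, 32.2, 47.2 and 33.6 in RH, against 47.5, 62.3, 55.1 and 64.3 in WT, a difference of -25.0 points (limma SE 6.95, adjusted p = 0.632). RH MET 1, at 47.2, nearly met WT VEH 1, at 47.5. Covered length there was 2.0, 49.2, 25.4 and 30.4 kb in RH, against 34.0, 44.4, 42.8 and 46.4 kb in WT, and the CpG-poor Krt5 promoter printed above was under an interval in 3 libraries. Igsf21, a synaptic adhesion gene, had 27.1, 24.5, 27.7 and 33.6 in RH, against 58.4, 58.5, 51.9 and 53.3 in WT, the widest gap between groups of the 10 domains named here.

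In the other 8 regions of this class the RH mean percentile was under 50. It was 13.6 ± 10.7 in RH and 41.1 ± 7.28 in WT at a region 3543 bp from Gpatch2l, and 11.6 ± 6.06 in RH and 36.7 ± 7.72 in WT at a region 178639 bp from Tex29 (SD, n = 4 each). The summit heights near Gpatch2l were low, at 6, 9, 11 and 12 in RH, against 13, 13, 16 and 17 in WT. A region 3975 bp from Gng2, a G-protein gamma subunit gene, was below in RH on both measures, with percentiles of 34.7 ± 18.6 in RH and 58.3 ± 7.38 in WT and shares of 41.2 ± 3.10 ppm in RH and 63.3 ± 12.3 ppm in WT. It was the only domain that separated downward on both. Msantd3, Simc1, Rbm19 and 4930415O20Rik differed by -24.9 to -21.1 points with overlapping shares, and Cnot10, of the CCR4-NOT deadenylase, had 27.4 ± 17.2 in RH, where RH VEH 1 was at 1.74, and 49.1 ± 5.44 in WT.

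Most of the 5 widest domains covered classic Polycomb targets. All 5 had a shorter mean cover in RH, by -0.02 log2 units at Pax2 to -0.14 at Aatf and Lhx1, and the groups overlapped in covered length. The Hoxc cluster with Calcoco1 and Smug1 was covered over 371, 423, 413 and 416 kb in RH, against 406, 424, 426 and 421 kb in WT. As a share it took 4832, 3109, 3648 and 3383 ppm in RH, against 3074, 3270, 3156 and 2528 ppm in WT, so that RH VEH 1 was the lowest library in kb and the highest in ppm (log2 difference 0.30, limma SE 0.11, adjusted p = 0.621). Pax2, a kidney and eye regulator, had 270 ± 9.49 kb in RH and 275 ± 4.60 kb in WT, and Foxf1, a forkhead gene of mesenchyme, had 239 ± 24.7 kb in RH and 261 ± 7.22 kb in WT (SD, n = 4 each). The region of Aatf and the homeobox gene Lhx1 had summit percentiles of 99.8, 99.2, 98.6 and 99.3 in RH, against 97.4, 97.8, 95.3 and 96.2 in WT, which did not overlap, though by mean summit height in place of the highest the difference of 2.53 points became -4.58. The domain from Acp4 to Josd2, which holds Clec11a, Shank1 and Syt3, was separated in share at 1681 ± 186 ppm in RH and 1443 ± 111 ppm in WT, but with a difference of -0.13 log2 units in covered length as such.

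At further targets named for their known roles the groups overlapped in width share and in summit percentile. The Hoxd cluster had 178 ± 19.1 kb in RH and 194 ± 16.0 kb in WT, Pax6 had 48.5 ± 0.957 kb in RH and 52.2 ± 3.20 kb in WT and the Gata4 region had 101 ± 12.5 kb in RH and 107 ± 8.27 kb in WT (SD, n = 4 each). Cdkn2a and Cdkn2b, cell cycle inhibitors that Polycomb silences, lay in 1 domain of 48.2 ± 3.45 kb in RH and 50.5 ± 1.89 kb in WT. Pax5, the B-lineage regulator, had 93.9 ± 14.2 kb in RH and 109 ± 10.1 kb in WT. Their log2 share differences were 0.13 to 0.28. At Pax6 the covered lengths did not overlap and ran the other way, at 47.2, 48.6, 49.4 and 49.0 kb in RH, against 56.4, 53.0, 49.6 and 49.8 kb in WT.

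Dnmt3a itself carried a narrow domain (chr12:3799401-3810800). It covered 0.80, 11.2, 6.60 and 7.20 kb in RH, against 10, 8.0, 5.6 and 7.20 kb in WT, and its summit stood at percentiles 27.1, 64.4, 70.5 and 64.4 in RH, against 69.8, 67.7, 72.3 and 65.5 in WT. RH VEH 1 alone stood apart and the other 7 libraries overlapped. The log2 share difference of -0.38 (limma SE 0.53, adjusted p = 0.804) was -1.22 under VEH, which includes that library, and 0.46 under MET. Kit lay in no shared domain.

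Over the 15 gene lists, separated domains were few, and the counts are read against 3.96% above and 0.994% below for width share, and 0.395% above and 2.35% below for percentile, over all domains. The 16 domains of stem cell and self-renewal genes had a median log2 width difference of 0.33, against 0.11 over all domains, with 2 separated upward and 15 of 16 positive, where 65.8% of all domains were. Other lists were also mostly positive, at 16 of 17 lymphoid, 12 of 13 Polycomb and DNA methylation and 5 of 5 Hox domains. Those of Pax, Sox, Tbx, Fox and GATA regulators were positive at 38 of 41 domains. Fewer were positive elsewhere, at 4 of 7 myeloid, 4 of 8 cell cycle inhibitor and tumour suppressor and 6 of 13 imprinted domains. The stem cell list is described first because its median was the highest of the 15, and its difference from other domains was not tested. Without RH VEH 1 the median was 0.28 against 0.07, with cover in the shared domains as the denominator it was 0.25 against 0.03, and as covered length it was -0.02 against -0.24. Hlf, a transcription factor of hematopoietic stem cells, took 125, 131, 138 and 125 ppm in RH, against 103, 84.9, 77.1 and 93.8 ppm in WT (log2 difference 0.54, limma adjusted p = 0.621). Hmga2, which encodes an architectural chromatin protein, took 133, 103, 111 and 112 ppm in RH, against 75.7, 80.3, 91.9 and 79.3 ppm in WT (0.49, adjusted p = 0.622). The groups did not overlap at either gene, and summit percentiles overlapped at both.

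Other stem cell genes had overlapping shares. Log2 differences were 0.89 at Prdm16, 0.53 at Mecom, 0.49 at Erg, 0.37 at Gata2, 0.34 at Meis1 and 0.33 at Bmi1, and -0.03 at Cdkn1c, all with limma adjusted p values of 0.621 or more. At Meis1 the covered lengths were 22.8 ± 1.10 kb in RH and 22.9 ± 1.18 kb in WT (SD, n = 4 each), and RH VEH 1 stood apart in share at 307 ppm. Fli1, an ETS factor of blood and vessels, was separated downward in percentile, at 63.9, 73.7, 74.1 and 70.5 in RH, against 77.9, 75.3, 81.1 and 81.1 in WT (difference -8.33 points, adjusted p = 0.653).

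Of 13 domains of Polycomb and DNA methylation genes, 2 were separated upward in width share. One of them, Phf19, an accessory subunit of Polycomb repressive complex 2, took 78.1, 107, 79.5 and 71.5 ppm in RH, against 63.6, 63.3, 51.9 and 39.7 ppm in WT (log2 difference 0.63). Tet1, which oxidises methylated cytosine, had a log2 difference of 0.52 with overlapping groups, and the list's median was 0.16.

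The Hox list fell on 5 domains that held 32 of its 39 genes, none separated, with a median log2 width difference of 0.25. The domain of Hoxa5 to Hoxa13 differed by 0.31 and that of Hoxb1 to Hoxb3 by 0.03, and at the Hoxb domain the percentile differed by -5.61 points. Other homeobox regulators had 58 domains, of which 2 were above in width share (Irx2, and Pitx1 with Catsper3) and 1 below, the region of Cdx1 and the PDGF receptor gene Pdgfrb. Irx2 took 294, 181, 196 and 190 ppm in RH, against 176, 173, 162 and 125 ppm in WT. At Pitx1 the difference of 0.16 became -0.19 in covered length, -0.13 for the longest interval and -0.19 with a minimum summit height. At the Cdx1 region RH libraries took 117 to 129 ppm and WT libraries 132 to 198 ppm. Isl1, a LIM homeobox gene of motor neurons and heart, was below in percentile, at 73.0, 68.6, 79.0 and 71.5 in RH, against 80.7, 79.7, 81.6 and 80.7 in WT.

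Of 41 domains of Pax, Sox, Tbx, Fox and GATA regulators, Sox9 and Tbx15 were above in share, at 177 ± 11.8 ppm in RH and 159 ± 3.46 ppm in WT for Sox9, and 356 ± 80.6 ppm in RH and 288 ± 19 ppm in WT for Tbx15 (SD, n = 4 each). In covered length the differences ran the other way, at -0.20 log2 units for Sox9 and -0.06 for Tbx15, and the closest libraries at Sox9, RH MET 2 at 162.5 ppm and WT VEH 2 at 162.1 ppm, nearly touched. Of 35 domains of bHLH and zinc-finger regulators, the neuronal factor gene Neurod6 had 104, 95.5, 77.7 and 86.1 ppm in RH, against 36.3, 77.2, 66.7 and 43.3 ppm in WT, and the oligodendrocyte factor gene Olig2 had 487, 376, 471 and 384 ppm in RH, against 285, 374, 301 and 349 ppm in WT. The closest libraries nearly touched at both genes, RH MET 1 and WT VEH 2 at Neurod6 and RH VEH 2 and WT VEH 2 at Olig2. Gli1, a hedgehog effector, was below in percentile with a difference of -0.926 points. Of 39 Wnt, BMP, FGF and hedgehog domains, Bmp3 was above in share, at 64.7 ± 8.86 ppm in RH and 46.0 ± 6.53 ppm in WT, and that of the Wnt inhibitor gene Sfrp5 was below in percentile, at 89.8 ± 2.30 in RH and 94.3 ± 1.06 in WT.

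Neural receptor, channel and adhesion genes had 45 domains with a median log2 difference of 0.10, of which 1 was above and 2 below in share and 3 below in percentile. The dopamine receptor gene Drd1 covered 10.6, 13.4, 14.4 and 13.8 kb in RH, against 19.8, 22.8, 22.0 and 26.4 kb in WT, and Grik3, another kainate receptor gene, covered 24.6, 61.8, 39.8 and 53.0 kb in RH, against 68.8, 77.4, 65.8 and 83.6 kb in WT. Each had a log2 share difference of -0.45. The guidance gene Sema6d had 84.1 ± 11 ppm in RH and 57.8 ± 7.11 ppm in WT. Cacna1a, a calcium channel gene, was below in percentile, at 79.7, 83.4, 83.9 and 81.5 in RH, against 86.6, 88.7, 87.7 and 89.3 in WT, as were Cdh11 and Pcdh8 with differences of -6.22 and -1.13 points.

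No domain of the myeloid (7), erythroid and megakaryocyte (5), lymphoid (17), or cell cycle inhibitor and tumour suppressor (8) lists was separated on either measure. Their median log2 width differences were 0.04, 0.04, 0.14 and 0.06. The 13 imprinted domains had a median of -0.01 with Grb10 above in share, at 393, 316, 346 and 317 ppm in RH, against 259, 262, 316 and 221 ppm in WT. RH VEH 2 and WT MET 1, both at 316 ppm, were apart by less than the 200 bp steps of the intervals resolve. The 11 stromal and endothelial domains had a median of 0.29, with the Cdx1 and Pdgfrb region below in share and Runx2 below in percentile, at 79.3 ± 2.18 in RH and 83.8 ± 1.91 in WT (SD, n = 4 each). Housekeeping genes had 1 domain, which was not separated. It is the domain that also holds the homeobox gene Tlx3, and it was counted among the other homeobox regulators too.

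**Figure D5:**
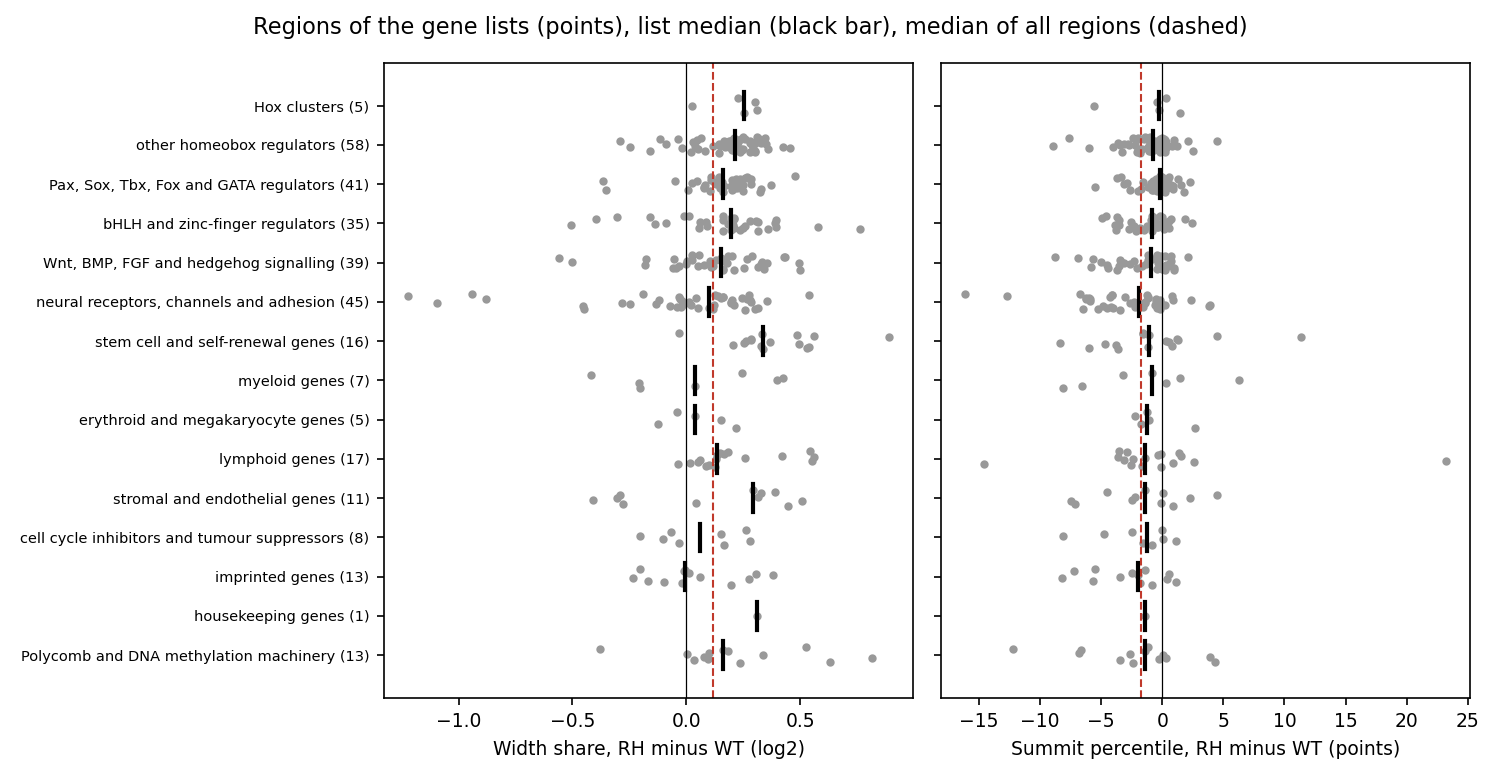
Each point is a domain of a gene list (number of domains in brackets), with the log2 width share difference on the left and the percentile difference on the right, both RH minus WT; black bars are list medians and the dashed line the median over all domains, 0.11 and -1.75. The bar of the stem cell list lies at 0.33, the highest of the lists with more than 1 domain.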

How the data were processed

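H3K27me3 was profiled in 8 libraries, 2 for each combination of genotype and treatment; 1 input library was not used here. Per the submitters' processing notes, bcl2fastq 2.20, BWA 0.7.12 and the build mm10 were used, in roles that the notes as held here do not give. Per the file headers, the authors deposited an interval list and a summit list for each library and a list of regions merged over all of them, so intervals were called per library and not on pooled replicates. The caller, its settings and any adjustment for depth do not appear in the sources used here. The deposited value of a summit is a score, its height, a whole number without a stated unit, and it was used only to rank summits within a library. All edges are multiples of 200 bp, which bounds the precision of widths. Depth in reads is unknown, and values therefore carry no counting error.

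For the 6336 shared domains on 19 autosomes, covered length, width share and the mid-rank percentile of the highest summit were computed with Python 3.11.15, numpy 2.4.6 and pandas 2.3.3. RH and WT libraries were compared by two-sided exact permutation over 70 assignments, and by limma 3.58.1 (R 4.3.3; eBayes with trend; treatment and genotype as terms), both with Benjamini-Hochberg adjustment over all domains at a threshold of 0.05 and both tested on simulated data. Standard errors are limma's. Gene spans and promoters were taken from RefSeq tables of GRCm38.p6, the assembly of mm10, which give no exons. Of 517 genes in 15 lists, 512 were matched, and a list gene's domain is the one with the most overlap. Median intervals per domain had been planned, but it was 1 in every library, so the mean is given.

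Named were, for each measure and direction, the 10 domains with the largest difference among those whose groups do not overlap and whose mean cover is at least 5000 bp; up to 4 genes of each list and direction with separated domains, taken alphabetically; the 5 widest domains; and the genes Hoxd11, Pax6, Gata4, Cdkn2a, Meis1, Pax5, Gata2, Kit and Dnmt3a. A few of the items so chosen are not reported here. Members, lists and rules were chosen with earlier results of these data known. Alternatives were other denominators, the longest interval, the mean summit height, a percentile among the shared domains, a minimum summit height of 15, an equal number of intervals, cover of at least 50% of a domain, array weights, no treatment term, the replicate number as a block, and leaving out libraries. Leaving out both RH VEH 1 and WT MET 2 was chosen after the data were seen.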

Additional observations from a re-analysis of the deposited data

Results flagged for a closer look

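A library was marked out where its gap to the nearest of the 4 libraries of its genotype took up nearly the whole range of those 4. Of 222 groups of 4 tested, 23 were marked (10.4%). Many of these groups were values at regions named from the same 8 libraries, and each pooled both treatments. The percentage therefore has no chance rate to be read against. WT MET 2 had 166.4 Mb of autosomal cover and 132.2 ppm at Grik4, above the other WT libraries. RH VEH 1 had 93.7% of its cover in the shared domains, 91.17 ppm at Atp13a2, 1959 ppm at the Acp4 domain and 307.4 ppm at Meis1, above the other RH libraries. Its percentiles stood apart at Dlgap1 (82.64), Ddx25 (91.52), near Gng2 (7.024), at Cnot10 (1.743) and at Dnmt3a (27.12). RH VEH 2 stood apart at Esrrb (percentile 2.596), near Gpatch2l (148.5 ppm), at the Acp4 domain (percentile 93.08) and at the Gata4 domain with Fdft1 (percentile 91.41). RH MET 1 had a percentile of 47.24 at Pknox2, and RH MET 2 had 26.0 ppm at Msantd3. WT VEH 1 stood apart near Synm (percentile 68.45), at Tcf7l2 (47.51), at Atp13a2 (68.45), near Tex29 (98.38 ppm) and at Rbm19 (131.7 ppm), and WT VEH 2 at Stmn4 (percentile 32.63). Counts of domains without each library stand with the processing alternatives.

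At Pebp4 the percentile difference, RH minus WT, was -20.8 points under VEH and 10.6 points under MET, with each RH library below each WT library under VEH and above under MET. The difference between the treatments was -31.42 points and did not pass limma's interaction test (adjusted p = 0.998, unadjusted p = 0.0580).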

How the results depend on the processing

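Limma called 0 domains for width share under every alternative run. Its smallest adjusted p ran from 0.05003 without the treatment term, just over the threshold, to 0.609 for the longest interval. It was 0.0583 without RH VEH 2 and 0.0641 without WT MET 2. For summit percentile it called 1 domain higher in RH by mean summit height (Dhh), with the percentile among shared domains (Bop1 and Scx), with array weights (Trim47) and without RH VEH 2 (Trim47), and 1 lower in RH by mean summit height (Ltbp2); these genes are named because they were called. By the highest summit, Dhh differed by -0.388 points, opposite in sign to its call, and Ltbp2 by -0.162 points. Counts of domains whose groups do not overlap moved most. For a wider share in RH, 251 became 7 for covered length as such, 165 with equal numbers of intervals and 395 without both RH VEH 1 and WT MET 2. For a narrower share in RH, 63 became 114 with cover in the shared domains as the denominator, 331 for covered length, 14 with a minimum summit height, 0 among domains covered over at least 50% in every library and 262 without both libraries. For a higher percentile in RH, 25 became 145 among shared domains, 5 with a minimum height, 98 with equal numbers, 10 with the 50% rule and 269 without both libraries, and for a lower one 149 became 49 with the 50% rule and 234 without both libraries. The 50% rule leaves 2117 domains and the minimum height 3754. Leaving out 1 library each gave 309 to 587 (wider, most without RH VEH 2), 100 to 152 (narrower), 27 to 122 (higher percentile, most without RH VEH 1) and 184 to 615 (lower percentile, most without WT VEH 1), and 0 to 1 limma call for higher percentiles; fewer libraries separate more easily by construction. Totals, RH minus WT, ranged over -36.35 to -16.59 Mb of cover, 2.196 to 6.514 points of cover in the domains, -2.55 to -1.083 kb of median cover and 0.02194 to 0.1166 intervals per domain, cover and median cover reaching the smallest exact p without RH VEH 2. Intervals per domain became -0.0285 with the minimum height. Width differences reversed for covered length at Acp4 (-0.1322), Pitx1 with Catsper3 (-0.185), Sox9 (-0.2042) and Tbx15 (-0.06429), for the longest interval at Acp4 (-0.08869) and Pitx1 (-0.1271) and with the minimum height at Pitx1 (-0.1911), and the percentile at Aatf and Lhx1 by mean summit height (-4.584); the cause was not tested. Of the other values at named regions, 1617 stayed the same, 73 moved and 101 no longer separated. Each of the 8 settings that left out 1 library gave 150 of those that stayed the same. Leaving out a library cannot undo a separation, so these are no sign of stability. The replicate number as a block gave 525, 113, 59 and 295 separated domains in the same order and changed no limma call. Within such blocks the smallest p of the exact permutation test is 0.0556. Libraries with the same number correlated at -0.0294 to 0.113 in width deviations and -0.0344 to 0.0859 in percentile deviations. The labels do not say what the numbers stand for, and a shared batch was not tested.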

Other observations

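The X chromosome, which the shared autosomal domains leave out, took 4.02, 12.2, 7.32 and 6.29% of all cover in RH libraries, against 6.74, 10.5, 8.76 and 10.5% in WT libraries. That is 7.46 ± 3.46% in RH and 9.12 ± 1.78% in WT (SD, n = 4 each), which did not differ beyond the spread between libraries (two-sided exact permutation p = 0.429). RH VEH 1 was the lowest of the 8 and RH VEH 2 the highest.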
